A study of Mus musculus with 12 samples.

Results

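RNA of the gene Sftpc divided the 6 untreated libraries of this mouse liver cancer organoid series into 3 with a high level and 3 with a low level. The cells were sorted from organoids, 3-dimensional cultures grown from liver tumours that the carcinogen diethylnitrosamine (DEN) had induced in C57BL/6 mice carrying Lgr5-DTR-GFP. In these mice the diphtheria toxin receptor and GFP are made under the Lgr5 promoter, so GFP marks cells in which Lgr5 is active, and all groups share this genotype. LGR5-GFP+ (LGR5+) and LGR5-GFP- (LGR5-) cells were sequenced without treatment or after 5-FU, a chemotherapeutic that inhibits thymidylate synthesis, with 3 libraries in each of the groups and 12 in all. The sources used here do not say whether replicates came from separate cultures, organoid lines or animals, so p-values measure the spread between libraries, which may be technical.

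The sides were chosen by the measured level of Sftpc itself: a library was high when Sftpc exceeded 10000 CPM (a gene's reads scaled to a common library total), here of the column total. On the high side it stood at 15867 CPM in LGR5- replicate 1, 16351 in LGR5- replicate 2 and 15374 in LGR5+ replicate 1. On the low side it stood at 3853 in LGR5- replicate 3, 5794 in LGR5+ replicate 2 and 5172 in LGR5+ replicate 3. The library nearest the threshold from above thus held 15374 and the nearest from below 5794, with no library between them. The 6 libraries treated with 5-FU held 2510 to 5985 and all fell below the threshold. Each side contained libraries of both sorted populations, but both replicates numbered 1 were high and both numbered 3 were low, so replicate number and Sftpc side differ independently only in replicate 2. Because these values set the sides, no test was made on Sftpc.

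Sftpc encodes surfactant protein C, a small hydrophobic protein that alveolar type 2 cells of the lung process through the endoplasmic reticulum and lamellar bodies and secrete with surfactant lipids. It is the textbook marker of these cells and is not known as a product of hepatocytes or bile duct cells. Hypoxia-responsive genes are switched on by HIF transcription factors when oxygen falls, replication genes by E2F factors as cells enter S phase, and sterol synthesis genes by SREBP2 when cell cholesterol falls. The tissue label was compared with defining markers. The hepatocyte genes Hnf4a, Ttr, Fga and Fgb had no read in any untreated library, and Alb had 5 to 22 reads per library. In all, 11 of 23 hepatocyte genes had no read, while the fetal liver and liver tumour gene Afp stood at 9.87 to 21.1 CPM and the transferrin gene Trf at 20.7 to 41.8 CPM. The epithelial gene Epcam stood at 1245 to 1481 CPM and the bile duct keratin gene Krt19 at 373 to 564 CPM. Nkx2-1, a transcription factor gene of lung and thyroid epithelium, was present at 43.2 to 58.1 CPM in all 6 libraries. The lung epithelial genes and the missing hepatocyte genes go against a hepatocyte identity of these cells, which are called liver cancer organoid cells here only as the labels have it. The origin of the line was not tested, and the alveolar and airway values below are to be read with that limit.

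The untreated libraries held 15831066 to 19323514 counted reads. LGR5- replicate 3, on the low side, stood apart from the others. Mitochondrially encoded genes took 6.93% of its reads and 1.49% to 2.08% in the other untreated libraries. On the first principal component of the untreated libraries, which carried 54.4% of their variance, it lay at 76.3. The other low libraries lay at 15.1 and 4.68 and the high libraries between -33.3 and -29.7, so the largest axis of variation ran in the same order as the split. No pair of untreated libraries agreed within sampling noise. The closest pair was LGR5- replicate 1 with LGR5+ replicate 1, with a chi-square per degree of freedom of 4.42. The comparison was therefore also fitted without it. Of the genes named below, Lgi3, Bpifb1, Rbm3, Rbm3-ps, Car9, Ndrg1, Egln3, Ndufa4l2, Ero1l, Krt5, Krt15, Lgals7, Sprr2h, 2610528A11Rik and Il24 also passed in that fit, Krt14 passed in that fit alone, and every other gene named below as called between the sides lost its call in it. A lost call did not always go with a smaller log2 fold change (high minus low side). Depp1 went from -2.95 to -3.38 and Trp63 from -1.44 to -1.63, whereas Capn6 went from 2.25 to 1.47 and Mcm6 from 0.81 to 0.47. Without LGR5- replicate 3 both remaining LGR5- libraries are high, so the estimate compares LGR5+ replicate 1 with LGR5+ replicates 2 and 3, and the LGR5- libraries inform only the spread.

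Among 15726 genes tested with edgeR's quasi-likelihood test, 1167 were higher (7.42%) and 1572 lower (10%) in the high-Sftpc libraries at a Benjamini-Hochberg adjusted p under 0.05, with sorted population as covariate. With scaling by library size alone in place of TMM factors, the median log2 fold change of all genes moved from -0.03 to -0.18 and the calls became 554 higher and 2269 lower. By the other rule, which asks for a log2 change beyond 1.5 in size and an unadjusted p under 0.05, 670 genes passed (4.26%), 42 of them higher (0.267%) and 628 lower (3.99%). These calls describe what varied together with Sftpc across libraries sorted by Sftpc, and they are not a test of a condition. The count rested on LGR5- replicate 3: without it 5 genes were higher (0.0310%) and 21 lower (0.130%), while 1998 of 16112 genes (12.4%) had an unadjusted p under 0.05, 6.26% as higher and 6.14% as lower. Of those 26 calls, 24 were among the 2739. In a joint fit of all 12 libraries, 268 of 16739 genes were higher (1.6%) and 582 lower (3.48%), and at an unadjusted p under 0.05 the shares were 10.9% and 15.5%. That fit gave each group its own level and still compared the untreated sides alone. The treated libraries entered only through the spread, the filter and the scaling, so it does not test the relation with Sftpc in treated cells. No gene passed the test of a different split in LGR5+ and LGR5- cells in edgeR's interaction term (0 of 17056, with 2106 at an unadjusted p under 0.05).

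Noncoding genes leaned to the low side. Of 1765 tested genes annotated as noncoding other than mitochondrial RNA and pseudogenes, 472 were lower and 5 higher in the high-Sftpc libraries, against 1036 lower and 1102 higher of 12728 protein-coding genes, counted in the fit of all 6 libraries. Such noncoding genes took 3.14% of reads in LGR5- replicate 3, 2.49% in LGR5+ replicate 2 and 1.27% to 1.6% in the other untreated libraries. The part of RNA quality or intronic reads in this was not tested.

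A neighbouring gene of Sftpc differed between the sides. Sftpc lies on chromosome 14 (chr14:70520949-70524081, GRCm38, minus strand) and Lgi3, which encodes a secreted leucine-rich repeat protein, lies 6604 bases away (chr14:70530685-70538324, plus strand). Lgi3 was at 61.6 CPM in LGR5- replicate 1, 71.7 in LGR5- replicate 2 and 67.7 in LGR5+ replicate 1. It was at 22.2 CPM in LGR5- replicate 3, 27.4 in LGR5+ replicate 2 and 32.8 in LGR5+ replicate 3. Later values of a side keep this order of libraries. All 3 high libraries lay above all 3 low libraries, with a log2 fold change of 1.37 ± 0.18 (SE, adjusted p = 0.000138, edgeR). Without LGR5- replicate 3 the change was 1.17 ± 0.20 (adjusted p = 0.0283). Lgi3 was the only one of the 11 tested genes within 250 kb of Sftpc to pass, where 17.4% of all tested genes were called in either direction. With so few genes, whether calls were more or less frequent around Sftpc than elsewhere cannot be told. Bmp1, the gene on the other side of Sftpc, which encodes a procollagen-cleaving protease, was at 52.2 to 54.7 CPM on the high side and 36.2 to 44.8 on the low side (log2 fold change 0.42 ± 0.16, adjusted p = 0.0701), and Reep4 was at 136 to 150 and 123 to 149 CPM. Hr was at 7.67 to 10.1 against 3.94 to 7.04 CPM (0.69 ± 0.24, adjusted p = 0.0511, edgeR). Polr3d was at 20.8 to 27.2 against 14.8 to 19.5 CPM (0.42 ± 0.20, adjusted p = 0.129). The remaining tested neighbours overlapped between the sides. Lgi3 and its place beside Sftpc were singled out after their values were seen.

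Part of the alveolar type 2 list moved with Sftpc. Of 26 tested genes of the 29 on this list, which leaves Sftpc out, 6 were higher (background 7.42%) and 0 lower, with a median log2 fold change of 0.33 against -0.03 over all genes. The joint fit of all 12 libraries called 2 of 27, where it called 1.6% of all genes higher. Sftpa1, encoding the collectin surfactant protein A, was at 11, 8.06 and 9.92 CPM in LGR5- replicates 1 and 2 and LGR5+ replicate 1. It was at 1.11, 6.51 and 4.18 CPM in LGR5- replicate 3 and LGR5+ replicates 2 and 3. The sides did not overlap, the lowest value was that of LGR5- replicate 3, and the log2 fold change of 1.81 ± 0.45 (adjusted p = 0.0226, edgeR) became 0.90 ± 0.33 without that library (adjusted p = 0.295). Lamp3, a lamellar body membrane protein gene, was at 27.0 to 28.7 CPM on the high side and 12.9 to 17.1 on the low side (log2 fold change 0.93 ± 0.18). Egfl6, encoding a secreted EGF-repeat protein, was at 15.3 to 19.5 against 6.21 to 9.31 CPM (1.25 ± 0.21). Lpcat1, which remodels surfactant phosphatidylcholine, was at 19.3 to 25.6 against 12.6 to 13.7 CPM (0.71 ± 0.19). Rnase4 and the collectin gene Sftpd completed the 6, Sftpd with overlapping sides.

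Other genes that define alveolar type 2 cells did not pass. Sftpb, encoding surfactant protein B, was at 23.0, 29.0 and 27.9 CPM on the high side and 10.3, 25.5 and 9.55 on the low side (adjusted p = 0.162). Its level in LGR5+ replicate 2 lay inside the range of the high side. Abca3, the lamellar body lipid transporter gene, was at 25.4 to 32.7 and 31.2 to 32.3 CPM, a log2 difference of -0.08 ± 0.16. Slc34a2, a phosphate transporter gene, was at 5.37 to 6.63 and 3.10 to 7.61 CPM. Nkx2-1 was at 43.2, 50.9 and 47.6 CPM on the high side and 53.6, 58.1 and 56.8 on the low side (-0.23 ± 0.16, adjusted p = 0.323), every high library lying below every low one. In the fit leaving out LGR5- replicate 3, 0 of the 26 passed at the adjusted threshold by edgeR, 6 were higher and 1 lower at an unadjusted p under 0.05, and the median was 0.15.

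**Figure D1:**
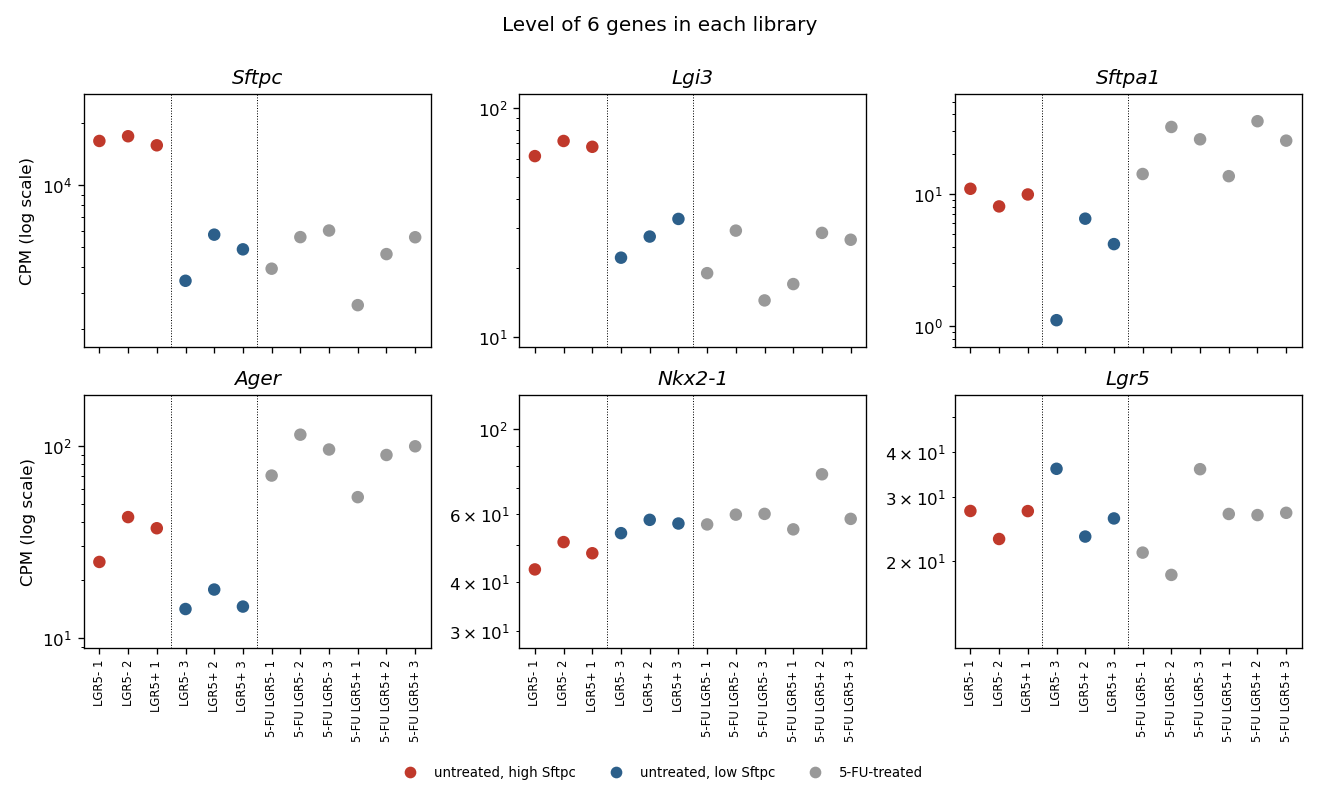
Level of 6 genes (CPM, log axis) in each of the 12 libraries, with untreated high-Sftpc libraries in red, untreated low-Sftpc libraries in blue and 5-FU-treated libraries in grey. Sftpc set the split. Lgi3, Sftpa1 and Ager do not overlap between red and blue points, Nkx2-1 and Lgr5 are not higher in the red ones, and Sftpa1 and Ager are higher in every treated library than in any untreated one although treated Sftpc is low.

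Among genes of other lung epithelial cells the share called was near that of all genes. Of 17 tested alveolar type 1 genes 2 were higher and 2 lower, 11.8% each way against 7.42% and 10% of all genes, and 0 passed without LGR5- replicate 3 by edgeR, with 2 higher and 4 lower at an unadjusted p under 0.05. Ager, encoding the receptor for advanced glycation end products, was at 24.9, 42.6 and 37.3 CPM on the high side and 14.2, 17.9 and 14.6 on the low side (log2 fold change 1.22 ± 0.20, adjusted p = 0.000992, and 1.2 ± 0.28 with adjusted p = 0.119 without LGR5- replicate 3). The tight junction gene Cldn18 was at 0.545 to 1.81 against 0.0555 to 0.418 CPM (adjusted p = 0.0217, and 0.377 without that library). The 2 lower members were Ahnak and Vegfa, and Vegfa is also an oxygen-regulated angiogenic factor. Of 10 tested airway secretory genes, Bpifb1, an airway mucosal defence protein gene, rose from 15.8 to 22.1 CPM on the low side to 36.8 to 54.3 on the high side (1.33 ± 0.18, and 1.52 ± 0.22 with adjusted p = 0.0122 without LGR5- replicate 3), whereas Krt15 fell. No ciliated cell gene of 6 tested passed by edgeR, 0 also at an unadjusted p under 0.05, and their summed level was 13 to 13.7 CPM on the high side and 15.9 to 16.7 on the low side.

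Genes of the response to low oxygen were lower where Sftpc was high. Of 22 tested hypoxia and glycolysis genes, 10 were lower (background 10%) and 0 higher, with a median log2 fold change of -0.43. When all 12 libraries were fitted together, still comparing the untreated sides alone, 0 of the 22 passed by edgeR. In that fit 1 was lower at an unadjusted p under 0.05 (15.5% of all genes) and the median was -0.42. Car9, encoding the HIF-induced carbonic anhydrase IX, was at 22.9, 24.2 and 24.2 CPM in LGR5- replicates 1 and 2 and LGR5+ replicate 1. It was at 63.6, 60 and 65.3 CPM in LGR5- replicate 3 and LGR5+ replicates 2 and 3. The sides lay far apart relative to the spread within each, with a log2 fold change of -1.41 ± 0.16 (adjusted p = 3.8e-05, edgeR) and of -1.37 ± 0.22 without LGR5- replicate 3 (adjusted p = 0.0185). Ndrg1, a stress-induced differentiation gene, was at 43.1, 62.3 and 47.6 CPM against 134, 157 and 152 CPM (-1.52 ± 0.18, and -1.69 ± 0.24 without LGR5- replicate 3). Egln3, encoding the prolyl hydroxylase that marks HIF-alpha for degradation and is itself induced by HIF, was at 64.6, 92.1 and 73.9 against 155, 182 and 180 CPM (-1.14 ± 0.18, and -1.29 ± 0.22 without it). These 3 genes were the members of the list that still passed without LGR5- replicate 3.

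P4ha1, encoding a collagen prolyl hydroxylase subunit, was at 49.4 to 55.8 CPM on the high side and 88.9 to 118 on the low side (log2 fold change -1.02 ± 0.17). The mitophagy receptor gene Bnip3 was at 225 to 254 against 352 to 571 CPM (adjusted p = 0.00227). Pfkp, Adm, Gpi1, Hk1 and Ankrd37 completed the 10. Outside the list, Ndufa4l2, a HIF target that lowers mitochondrial complex I activity, was at 0.75 to 1.26 against 5.55 to 7.92 CPM (-2.94 ± 0.34), and Ero1l, an oxidase of protein disulfide bonds that oxygen also regulates, was at 75.2 to 82.3 against 199 to 218 CPM (-1.40 ± 0.16). Vegfa was at 43.9, 44.7 and 37.4 against 131, 78.8 and 70.9 CPM (-1.29 ± 0.17). When LGR5- replicate 3 was left out, 12 of the 22 had an unadjusted p under 0.05 and a negative change, and the list's median was -0.59. The summed level of the list overlapped between the sides, 21080 to 23720 against 15010 to 25740 CPM.

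Promoters of called members are shown to relate each group of genes to the motif of the factor named above. The sequences are RefSeq's, the 250 bases before the annotated start on GRCm38.p6, and each is written on the strand of the gene with the motif, or its reverse complement, in capitals. The HIF core ACGTG (reverse complement CACGT) was present in 5 of the 9 called hypoxia genes with a promoter sequence here and in 16.6% of all 32851 promoters. The 3 shown are Egln3 (chr12:54203875-54204124, minus strand), P4ha1 (chr10:59323046-59323295, plus strand) and Bnip3 (chr7:138909507-138909756, minus strand), where both orientations overlap. Ankrd37 and Car9 also held it.
Egln3: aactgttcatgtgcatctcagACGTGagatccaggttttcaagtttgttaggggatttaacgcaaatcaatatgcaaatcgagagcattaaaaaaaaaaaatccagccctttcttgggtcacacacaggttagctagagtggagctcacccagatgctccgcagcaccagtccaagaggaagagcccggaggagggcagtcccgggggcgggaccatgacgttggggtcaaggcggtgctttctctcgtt
P4ha1: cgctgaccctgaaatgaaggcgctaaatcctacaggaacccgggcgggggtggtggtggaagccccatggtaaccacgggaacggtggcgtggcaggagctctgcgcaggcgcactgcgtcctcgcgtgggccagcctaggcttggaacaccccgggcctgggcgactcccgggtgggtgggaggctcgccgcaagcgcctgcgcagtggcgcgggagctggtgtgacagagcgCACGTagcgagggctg
Bnip3: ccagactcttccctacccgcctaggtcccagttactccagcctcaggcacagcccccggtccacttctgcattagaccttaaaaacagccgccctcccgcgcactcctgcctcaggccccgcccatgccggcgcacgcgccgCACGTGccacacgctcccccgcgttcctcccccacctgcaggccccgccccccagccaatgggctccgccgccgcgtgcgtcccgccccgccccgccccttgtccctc

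A match only says that these letters are present. The motif is short, and it was searched on both strands. The plot of named genes by library shows, for the untreated libraries, the hypoxia genes mostly with the opposite sign to replication, sterol and chaperone genes. LGR5+ replicate 3 was an exception for replication, the whole hypoxia list lying 0.32 and the S phase list 0.02 (log2) above the untreated mean. In the treated libraries hypoxia and replication genes are mostly low together.

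**Figure D2:**
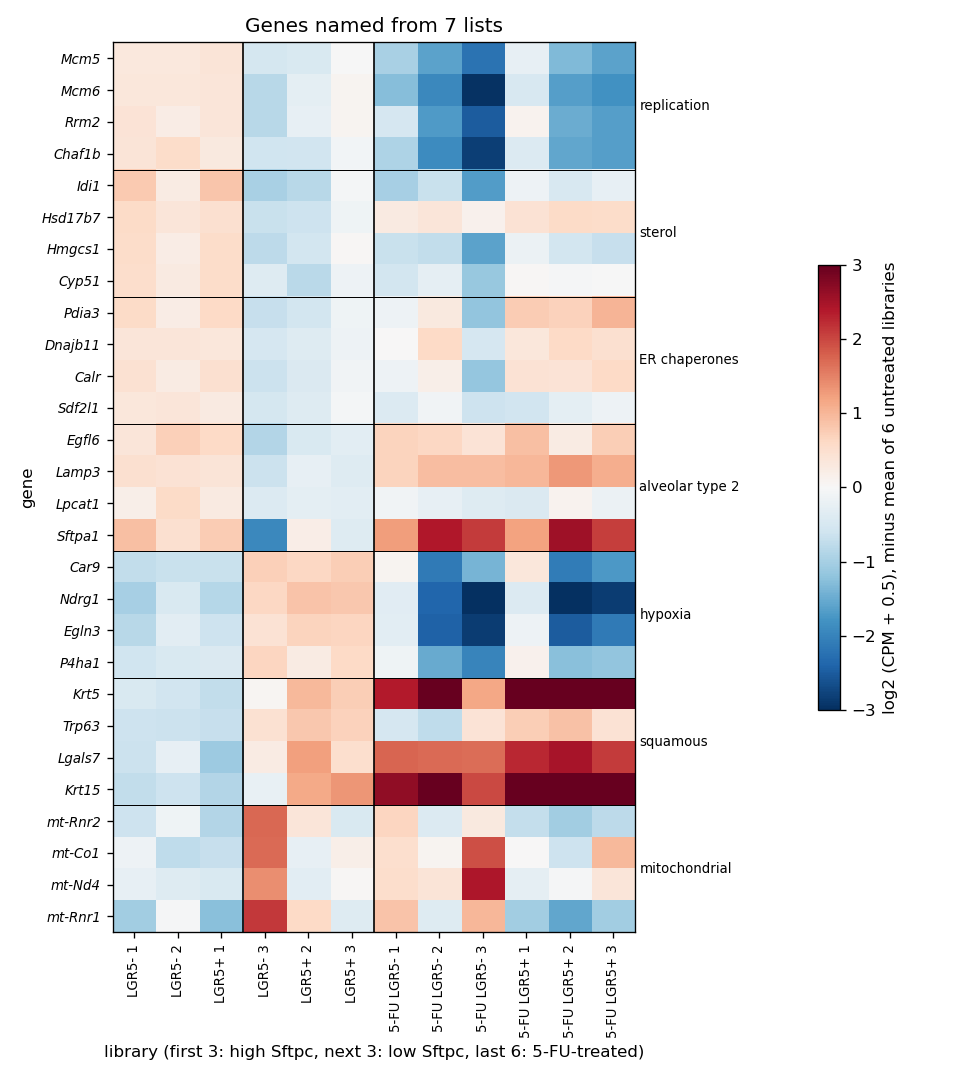
Heat map of 28 genes from 7 lists in the 12 libraries. Colour gives log2 (CPM + 0.5) minus the mean of the 6 untreated libraries, from -3 (blue) to 3 (red), and black lines separate high-Sftpc, low-Sftpc and 5-FU-treated libraries. Replication, sterol and chaperone genes are above 0 in the high-Sftpc columns and hypoxia and squamous genes below 0, while mitochondrial genes are high in LGR5- replicate 3 among untreated libraries, and mt-Co1 and mt-Nd4 also in 5-FU-treated LGR5- replicate 3. In all 6 treated columns Krt5, Lgals7 and Krt15 are above 0.

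Genes of DNA replication were higher where Sftpc was high. Of 25 tested S phase genes 14 were higher (background 7.42%) and 0 lower, with a median log2 fold change of 0.63. A joint fit of all 12 libraries called 0 of the 25 by edgeR, with 4 higher at an unadjusted p under 0.05 (10.9% of all genes) and a median of 0.64. Mcm6, a subunit of the replicative helicase, was at 326, 323 and 333 CPM in LGR5- replicates 1 and 2 and LGR5+ replicate 1. It was at 145, 210 and 270 CPM in LGR5- replicate 3 and LGR5+ replicates 2 and 3. The 3 high libraries were close to each other and the low ones spread, with LGR5- replicate 3 lowest (log2 fold change 0.81 ± 0.19, adjusted p = 0.00816, edgeR). The change was 0.47 ± 0.19 without that library (adjusted p = 0.326). Mcm5, another helicase subunit gene, was at 92.9 to 97.5 against 51.9 to 74.0 CPM (0.72 ± 0.17). Rrm2, encoding the small subunit of ribonucleotide reductase, was at 210 to 236 against 101 to 188 CPM (0.80 ± 0.19). Chaf1b, a chromatin assembly factor gene, was at 69.8 to 82.4 against 37.3 to 53.6 CPM (0.84 ± 0.18), and the sliding clamp gene Pcna at 298 to 332 against 167 to 231 CPM. Without LGR5- replicate 3, 0 of the 25 passed at the adjusted threshold by edgeR, 9 had an unadjusted p under 0.05, 24 were above 0 and the median was 0.41.

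Mcm5 and Mcm6 are the 2 called S phase genes, of 13 with a promoter sequence here, that held the E2F motif TTTGGCGC (reverse complement GCGCCAAA), which 0.417% of all promoters held. Mcm5 (chr8:75109259-75109508, plus strand) held it once and Mcm6 (chr1:128359706-128359955, minus strand) at 2 places.
Mcm5: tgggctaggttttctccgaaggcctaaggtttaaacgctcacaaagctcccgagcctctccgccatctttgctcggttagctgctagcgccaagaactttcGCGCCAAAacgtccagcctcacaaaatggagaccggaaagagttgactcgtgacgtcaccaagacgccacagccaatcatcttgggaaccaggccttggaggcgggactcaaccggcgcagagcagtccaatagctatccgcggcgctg
Mcm6: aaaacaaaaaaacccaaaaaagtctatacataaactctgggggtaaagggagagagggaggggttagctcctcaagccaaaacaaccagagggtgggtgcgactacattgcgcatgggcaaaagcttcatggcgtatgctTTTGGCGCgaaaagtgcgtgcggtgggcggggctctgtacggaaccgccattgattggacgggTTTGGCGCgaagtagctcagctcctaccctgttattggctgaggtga

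G2 and mitosis genes were called about as often as all genes. Of 25 tested 3 were lower, 12% against 10% of all genes, and 0 higher, and the 3 calls were lost without LGR5- replicate 3 (adjusted p = 0.145 to 0.537), where the change of Cenpf was -0.69, of Mki67 -0.63 and of Anln -0.39. In that fit 5 of the 25 were lower and 0 higher at an unadjusted p under 0.05, against 6.14% of all genes lower. Mki67, the proliferation antigen gene, was at 119, 145 and 115 CPM on the high side and 178, 194 and 164 on the low side (log2 fold change -0.54 ± 0.17, adjusted p = 0.0327). Cenpf, encoding a kinetochore protein, was at 143 to 155 against 190 to 252 CPM and Anln, a cytokinesis gene, at 16.2 to 21.6 against 25.1 to 34.4 CPM. The list's median was 0.14 with all 6 libraries, -0.02 with scaling by library size alone and -0.13 without LGR5- replicate 3, so its sign depended on the setting. The summed levels overlapped, 3697 to 4424 against 3085 to 4893 CPM.

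Sterol synthesis genes were higher where Sftpc was high. Of 31 tested sterol and fatty acid synthesis genes 13 were higher (background 7.42%) and 1 lower, Acss2, with a median log2 fold change of 0.50. Joint fitting of all 12 libraries called 6 of the 31 as higher, where it called 1.6% of all genes higher. Idi1, encoding isopentenyl diphosphate isomerase, was at 76.9, 52.9 and 80.2 CPM on the high side and 22.4, 25.0 and 43.1 on the low side (1.38 ± 0.22, adjusted p = 0.00118, edgeR). Hmgcs1, encoding HMG-CoA synthase, was at 176, 139 and 174 against 69.6, 81.5 and 122 CPM (0.98 ± 0.19). Neither gene overlapped between the sides. The squalene epoxidase gene Sqle was at 127 to 132 against 62.2 to 97.7 CPM, the lanosterol demethylase gene Cyp51 at 116 to 140 against 54.8 to 86.2 CPM, and Hsd17b7 at 70.7 to 80.8 against 34.2 to 49.4 CPM. With LGR5- replicate 3 left out, 0 passed at the adjusted threshold by edgeR, 11 were higher and 2 lower at an unadjusted p under 0.05, and the median was 0.36. With scaling by library size alone 7 members were higher in place of 13.

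Hmgcs1 (chr13:119690101-119690350, plus strand) was the 1 called sterol gene, of 8 with a promoter sequence here, with the sterol element TCACCCCAC (reverse complement GTGGGGTGA), found in 0.496% of all promoters.
Hmgcs1: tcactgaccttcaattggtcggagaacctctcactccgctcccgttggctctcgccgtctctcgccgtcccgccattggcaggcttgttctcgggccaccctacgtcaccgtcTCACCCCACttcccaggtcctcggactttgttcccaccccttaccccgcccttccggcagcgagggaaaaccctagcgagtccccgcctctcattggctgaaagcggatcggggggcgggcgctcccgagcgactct

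Chaperone genes of the endoplasmic reticulum were also higher on the high side. Of 19 tested, 8 were higher (background 7.42%) and 0 lower, with a median log2 fold change of 0.38. In the joint fit of all 12 libraries 0 passed by edgeR, with 8 higher at an unadjusted p under 0.05 (10.9% of all genes). Pdia3, encoding a protein disulfide isomerase of glycoprotein folding, was at 1411, 1107 and 1436 CPM on the high side and 591, 655 and 865 on the low side (adjusted p = 0.0034, edgeR). The calcium-binding chaperone gene Calr was at 1022 to 1197 against 542 to 791 CPM (0.89 ± 0.20) and the co-chaperone gene Dnajb11 at 98.5 to 101 against 54.6 to 69.7 CPM (0.74 ± 0.16). Hspa5, encoding BiP, was at 977, 802 and 1011 against 540, 513 and 829 CPM, with overlapping sides. Ddit3, a stress transcription factor gene of the ATF4 pathway, went the other way, at 14.2 to 20.1 against 30.6 to 36.8 CPM (-1.07 ± 0.19). Of 34 tested ATF4 genes 3 were higher (8.82%) and 2 lower (5.88%), near the 7.42% and 10% of all genes. Their median of -0.03 was -0.28 when LGR5- replicate 3 was left out, with 4 of 34 above 0, 0 called by edgeR and 1 higher and 6 lower at an unadjusted p under 0.05, and it was 0.41 when LGR5+ replicate 1 was left out. Without LGR5- replicate 3, 0 chaperone genes passed at the adjusted threshold by edgeR, 7 were higher and 1 lower at an unadjusted p under 0.05, and the median was 0.28.

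Some basal and squamous genes, part of them keratins, were lower where Sftpc was high. Of 13 tested genes of the squamous and stress keratin list, which also holds genes of other kinds, 5 were lower (background 10%). Krt4 was the 1 higher, and the median log2 fold change was -0.96. The joint fit of all 12 libraries called 3 of 18 as lower, where it called 3.48% of all genes lower. Krt5, the basal cell keratin gene, was at 16.9, 15.6 and 13.7 CPM on the high side and 24.2, 46.2 and 39.0 on the low side (-1.10 ± 0.22, adjusted p = 0.00354, edgeR). Here LGR5- replicate 3 was the lowest of the low side, and without it the change was larger, -1.64 ± 0.24 (adjusted p = 0.0122). Trp63, encoding the basal cell regulator p63, was at 2.13 to 2.24 against 5.33 to 6.87 CPM (-1.44 ± 0.30). Krt15 was at 1.15 to 1.48 against 2.11 to 7.16 CPM and Lgals7, a galectin of stratified epithelium, at 3.92 to 7.40 against 10.5 to 21.5 CPM. Without LGR5- replicate 3, 4 of 15 tested members passed, among them Krt14, which was at 18.2, 18.5 and 13.2 CPM against 16, 34.8 and 32 CPM. The list's median was then -1.63. With all 6 libraries Krt14 did not pass (adjusted p = 0.2, edgeR) and its sides overlapped.

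**Figure D3:**
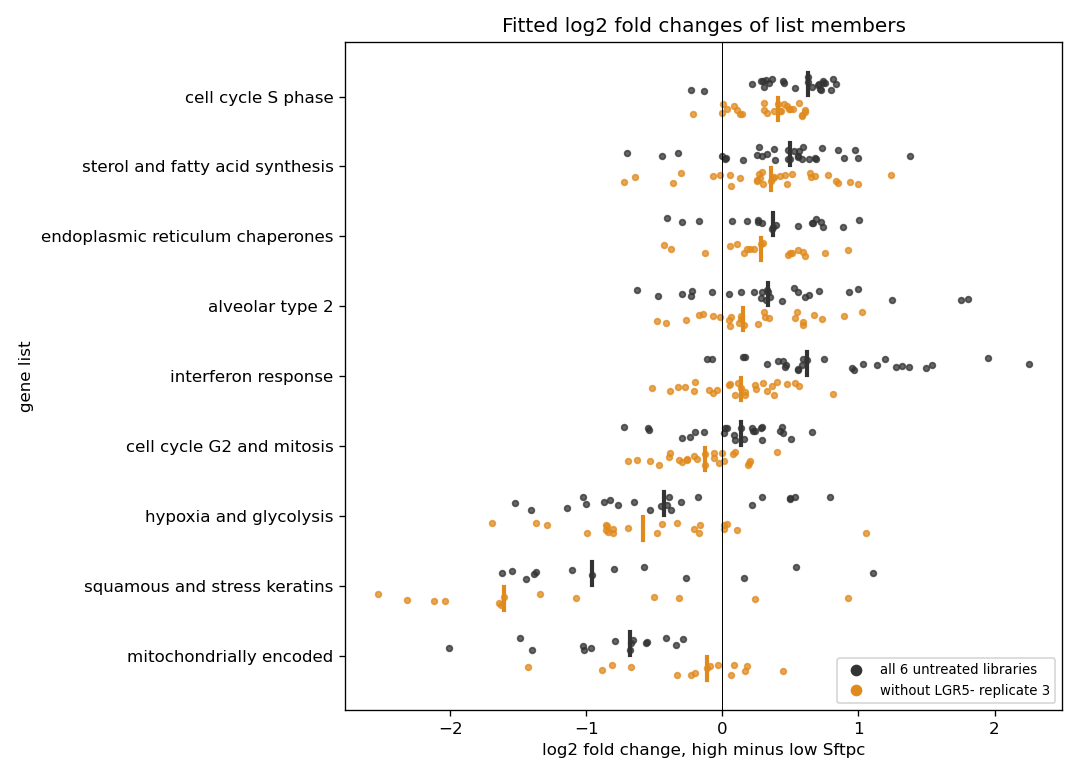
Fitted log2 fold change (high minus low Sftpc) of members of 9 lists that were tested with all 6 libraries, in black from all 6 untreated libraries and in orange from the fit without LGR5- replicate 3, with a vertical bar at the median of each. The S phase, sterol and chaperone medians lie above 0 and the hypoxia and squamous medians below 0 in both fits, while the interferon and mitochondrial medians, 0.62 and -0.68 in the first fit, are 0.13 and -0.11 in the second.

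Mitochondrially encoded genes rested on a single library. Of 15 tested, 4 were lower on the high side (26.7%, against 10% of all genes) and 0 higher. mt-Co1, encoding a cytochrome oxidase subunit, was at 923, 611 and 634 CPM on the high side and 3343, 862 and 1157 on the low side. The high value was that of LGR5- replicate 3 and the sides overlapped. The log2 fold change of -1.40 ± 0.31 became -0.67 ± 0.26 without that library (adjusted p = 0.326). Nuclear genes of oxidative phosphorylation gave 2 higher of 24, Cycs and Atp5b, which is 8.33% against 7.42% of all genes. Cycs, encoding cytochrome c, was at 451 to 499 against 265 to 338 CPM (0.72 ± 0.18).

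Among called genes with non-overlapping sides and a mean of at least 1 CPM, those with the largest fitted changes were mostly at low levels. On the high side these were Capn6, Cmpk2, Col4a2, Zfp105, Sftpa1, Rbm3-ps, Car4 and Col4a1, with log2 fold changes from 1.63 to 2.25. Of these 8, Rbm3-ps alone still passed without LGR5- replicate 3 (adjusted p = 0.043), the others having adjusted p from 0.11 to 0.401. Col4a1 and Col4a2 encode the paired chains of basement membrane collagen IV. Col4a2 was at 3.99, 7.29 and 3.75 CPM against 0.887, 1.6 and 1.13 CPM. Car4, a membrane carbonic anhydrase gene, was at 8.13 to 8.22 against 1.5 to 4.83 CPM. Rbm3-ps is a pseudogene of Rbm3, and reads of near-identical copies cannot be told apart with certainty. Rbm3 and Cirbp, which encode RNA-binding proteins induced by mild cooling, were singled out after their values were seen. Rbm3 was at 331, 275 and 326 CPM on the high side and 123, 147 and 157 on the low side (1.20 ± 0.17, adjusted p = 0.000245, edgeR, and 1.10 ± 0.18 with adjusted p = 0.0189 without LGR5- replicate 3). Cirbp was at 116, 139 and 129 against 44.3, 69.6 and 61.3 CPM (1.25 ± 0.18), and did not pass without that library (0.99 ± 0.19, adjusted p = 0.055).

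At the other end stood Sprr2h, 2610528A11Rik, Gm26935, Mybphl, Duox1, Depp1, Ndufa4l2 and Gm14027, of which Sprr2h, 2610528A11Rik and Ndufa4l2 still passed without LGR5- replicate 3. Sprr2h, a cornified envelope gene, had 1, 1 and 0 reads in the high libraries and 18, 33 and 73 in the low ones, a mean at least 14.2-fold higher on the low side when the high side is set at 3 reads per library. 2610528A11Rik was at 0.545, 0.493 and 0.115 CPM against 6.99, 8.04 and 5.13 CPM. Depp1, a gene induced by fasting and progesterone, was at 0.75 to 2.08 against 5.28 to 10.4 CPM (-2.95 ± 0.38). Il24, a cytokine gene singled out after its values were seen, was at 1.88, 2.30 and 1.96 against 9.65, 19.4 and 11.8 CPM (-2.57 ± 0.29).

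Lgr5, the gene by which cells were sorted, did not pass. It was at 27.5, 23.0 and 27.5 CPM on the high side and 36.0, 23.3 and 26.2 on the low side. The fitted difference was -0.19 ± 0.18 (adjusted p = 0.478) and had the opposite sign, 0.15 ± 0.22, without LGR5- replicate 3. The counts of the following lists stand against 7.42% higher and 10% lower of all genes, and most were near these shares. Of 16 Wnt target genes the inhibitor gene Apcdd1 was higher, at 100 to 145 against 66.5 to 93.9 CPM, and Cd44 lower. Of 18 progenitor genes 2 were higher and 3 lower, and of 22 p53 targets 1 and 2. Of 21 TGF beta and mesenchymal genes 5 were higher and 3 lower, among the latter the fibronectin gene Fn1, which was at 55.3 to 63.1 against 81.7 to 122 CPM. Notch3 was the 1 Notch pathway gene of 10 to pass, lower on the high side. Of 29 endoderm factors, Sox17, Foxa1 and Id2 were higher and Onecut2 and Trp63 lower. Fos and Ccn2 were the 2 lower of 21 immediate early genes, Galnt12 and Muc4 the 2 lower of 7 mucin genes, and Cldn4 the 1 higher of 12 bile duct genes.

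Interferon response and ribosomal protein genes gave no call by edgeR at the adjusted threshold, 0 of 27 and 0 of 38, with 4 and 0 at an unadjusted p under 0.05. The interferon list had a median log2 fold change of 0.62, which was 0.13 without LGR5- replicate 3, where 0 of 27 had an unadjusted p under 0.05. The MHC class I gene H2-D1 was at 1574, 1603 and 1693 CPM on the high side and 870, 1686 and 1178 on the low side. Rpl13 was at 3802 to 4342 against 3286 to 4716 CPM. Of 7 MHC class II genes the invariant chain gene Cd74 was higher, at 40.3 to 51.5 against 18.2 to 34.8 CPM.

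Markers of other cell types were low on both sides. In bulk libraries fewer cells of a type and less RNA per cell cannot be told apart. The sort had excluded CD45-positive and propidium iodide-positive cells. Macrophage genes, of which Marco had no read, summed to 32.4 to 38.5 CPM on the high side and 40.6 to 66.7 on the low side, and Cd68 was the 1 of 3 tested to pass, at 5.93 to 6.30 against 8.06 to 13 CPM. Mast cell genes summed to 36.6 to 44.7 against 21.7 to 35.9 CPM, of which Hdc made 16.8 to 23.7 against 5.21 to 11.4 CPM, with Cpa3, Mcpt4, Tpsab1 and Fcer1a at 0 reads. Fibroblast genes summed to 48.1 to 53.8 against 42 to 51 CPM with Col1a2, Lum and Postn at 0, and Acta2 was the 1 of 4 to pass. Neutrophil genes summed to 2.80 to 3.35 against 2.03 to 9.26 CPM, S100a8 passing as lower with its top value in LGR5- replicate 3. Endothelial, T and B cell, erythroid and neuroendocrine genes gave 0 calls by edgeR of 5, 2, 3 and 2 tested, 0 also at an unadjusted p under 0.05, with Emcn and Cd3e at 0. Hepatocyte genes summed to 42.5 to 53.5 against 55.0 to 56.6 CPM, Afp higher and the transferrin gene Trf lower.

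The 5-FU-treated libraries, which did not set the split, were used to ask whether the same genes follow Sftpc among them. Their Sftpc range was narrow, and both replicates numbered 1 had the lowest level of their population. Per doubling of Sftpc, 5 genes rose (0.0315%) and 241 fell (1.52%) of 15873 tested by edgeR, and 1854 (11.7%) had an unadjusted p under 0.05. The 2739 genes called in untreated cells did not lean to their untreated direction here: 47.8% of the higher genes and 47.0% of the lower genes had a slope of the same sign, where 50.4% of all slopes were above 0. The calls shared 56 genes, 22.8% of the treated and 2.04% of the untreated calls, and 33 of them had the same direction. For comparison, 17.4% of all genes were called in untreated cells, 1572 of those 2739 calls were lower, and 241 of the 246 treated calls fell, so no relation is read from the overlap.

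Hypoxia genes again went against Sftpc in this fit, with all 22 slopes negative and 12 called. Car9 was at 40.8, 8.48 and 14.5 CPM in treated LGR5- replicates 1 to 3 and at 49.5, 8.68 and 11.4 in treated LGR5+ replicates 1 to 3 (slope -2.61 ± 0.37, adjusted p = 0.0202). Both high values belonged to replicate 1. The replication genes, however, had the opposite direction to untreated cells: all 25 S phase slopes were negative and 15 were called, and Mcm6 was at 105, 67.3 and 32.5 CPM in LGR5- and 185, 81.5 and 72.1 CPM in LGR5+ replicates. Interferon genes gave 15 falling calls of 27, G2 and mitosis genes 11 of 25, and sterol and chaperone genes 0 by edgeR at the adjusted threshold, with 5 and 0 at an unadjusted p under 0.05. Alveolar type 2 genes leaned neither way, with 2 of 27 falling and 0 rising at the adjusted threshold, 4 each way at an unadjusted p under 0.05, 15 above 0 and a median slope of 0.08, and Sftpa1 had a slope of 1.38 ± 0.31 (adjusted p = 0.0582). Squamous genes, lower with high Sftpc in untreated cells, had a median slope of 0.15 with 13 of 18 above 0, 0 called by edgeR and 4 higher and 0 lower at an unadjusted p under 0.05. Equally numbered treated libraries deviated together, and with replicate number as a block 5 genes were called in the whole fit, none of them among the 246. The median hypoxia slope turned from -1.73 to 0.32, the S phase median from -1.45 to -0.24, and the squamous median from 0.15 to 1.94. The interferon median moved from -1.85 to 0.43 and the G2 and mitosis median from -1.2 to -0.06. The alveolar type 2 median moved from 0.08 to 0.40, with 7 of 27 slopes negative and 0 called. The treated relation therefore separated replicate 1 from replicates 2 and 3 and cannot be told apart from replicate number. Leaving out single treated libraries gave 0 to 1504 calls, 0 without LGR5+ replicate 2 and 1504 without LGR5- replicate 3.

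**Figure D4:**
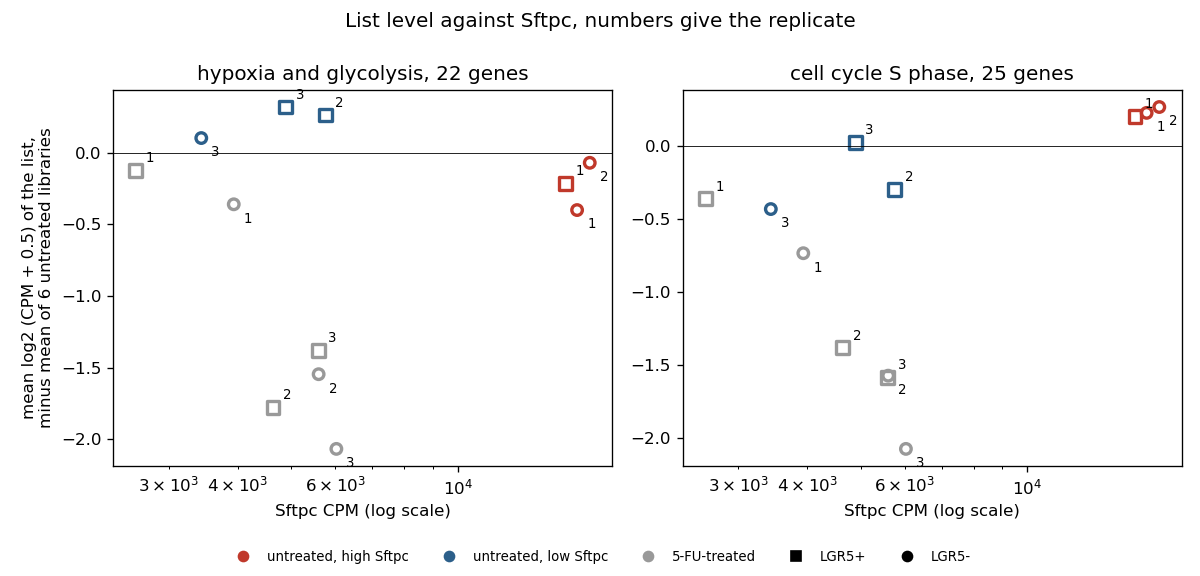
Mean log2 (CPM + 0.5) of 22 hypoxia and glycolysis genes (left) and 25 S phase genes (right), relative to the mean of the 6 untreated libraries, against Sftpc CPM on a log axis. Squares are LGR5+ and circles LGR5- libraries, colours give the side, and numbers the replicate. The untreated high-Sftpc libraries lie at -0.40 to -0.07 for hypoxia and 0.20 to 0.27 for S phase genes and the low ones at 0.10 to 0.32 and -0.43 to 0.02. Treated replicates 2 and 3 lie far below all untreated libraries in both panels and treated replicates 1 nearer to them.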

How the data were processed

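SMARTer amplification and paired-end sequencing were applied to RNA of the sorted cells. The authors deposited raw counts of 47069 Ensembl genes in 12 columns, and their processing notes name HISAT2, TopHat2, HTSeq and the build mm8. Counting settings are not given in the sources used here. Columns were matched to samples by title. Depth was 13750591 to 19323514 reads per library, a floor of 3 reads being 0.155 to 0.218 CPM. The comparison members and gene lists were chosen with earlier results of these data known. Genes passing filterByExpr were fitted with edgeR 4.0.16 in R 4.3.3 (TMM, robust quasi-likelihood, population as covariate, 3 residual degrees of freedom), with p adjusted over all genes but Sftpc, and DESeq2 1.42.0 as alternative. CPM values use 1 TMM scaling over 12 libraries, and the 3 values of a side are listed as replicates 1 and 2 of LGR5- then 1 of LGR5+ (high), and 3 of LGR5- then 2 and 3 of LGR5+ (low). Errors of fold changes are SEs. Named genes were Sftpc, Lgr5, Nkx2-1, the 8 highest and 8 lowest called genes without overlap and with mean CPM of at least 1, and up to 4 called members of each of 34 lists (of 678 entries 2 unmatched), or 2 abundant ones. Other genes given with values were chosen after these were seen, and a few genes are not reported here. Treated slopes used centred log2 (Sftpc CPM + 1). In simulated counts with these depths, 83% of genes changed by a log2 of 1 and 100% by 2 were recovered in the main comparison, 61% and 98% without LGR5- replicate 3, and 22% and 97% for the treated slope. The changed genes were drawn from the better expressed ones, and no library standing apart like LGR5- replicate 3 was simulated. Recovery of genes at low levels is therefore not known. False calls were 14, 32 and 11 in these comparisons in turn. Same-numbered treated libraries deviated together (correlations 0.57, 0.22 and 0.30), so the blocked fit is given. Coordinates are from GENCODE M21 and RefSeq (GRCm38), not the authors' build.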

Additional observations from a re-analysis of the deposited data

Results flagged for a closer look

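The slope of expression on log2 Sftpc differed between treated and untreated libraries for 19 of 86 named genes (edgeR, difference of slopes in a fit over 12 libraries, adjusted p under 0.05), as for 500 of 16739 genes overall. This test was chosen after the data had been seen. Apart from Lgr5 and Nkx2-1, the 86 genes were named for a call between the untreated sides. Large untreated slopes were thus selected and a difference was favoured in advance, so the 2 shares are not compared. Values are treated minus untreated slopes on the log2 scale. For replication and division genes they were Rrm2 (-2.58), Mcm5 (-1.86), Chaf1b (-2.12), Mcm6 (-2.04) and Mki67 (-1.58). For genes regulated by oxygen they were Vegfa (-1.84), Car9 (-1.87), Ndrg1 (-2.52), Ndufa4l2 (-3.22), Egln3 (-2.23) and P4ha1 (-1.27). For other genes they were Car4 (-4.62), Cmpk2 (-4.06), Capn6 (-4.23), Cd74 (-1.20), Apcdd1 (-1.45), Sox17 (-2.61), Egfl6 (-1.08) and S100a8 (2.48). With replicate number as a block within treatment 0 of the 19 passed, as did 0 of all genes, with 2922 at an unadjusted p under 0.05 without the block. Of the 19, 15 kept their sign, but several values all but vanished: Cmpk2 became -0.02, Vegfa -0.01, Ndrg1 -0.14, Car9 -0.25 and Chaf1b -0.26. Ndufa4l2 (0.78), Egln3 (0.77), Mki67 (0.79) and P4ha1 (1.04) turned positive. Replicate number and Sftpc largely coincide in both treatments, so they cannot be told apart here.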

How the results depend on the processing

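The count of 2739 genes differing between high and low Sftpc became 64 with a replicate block (8 higher, 56 lower), 807 without the population term, 850 in a fit of all 12 libraries and 26 to 4214 with single libraries left out. The extremes came from leaving out LGR5- replicate 3 and LGR5+ replicate 1, and dropping LGR5- replicate 1 gave 1146. DESeq2 gave 2626 calls, 2390 of them shared. The blocked fit compares the sides only within replicate 2, that is LGR5- with LGR5+. Same-numbered untreated libraries did not all deviate together (0.48, -0.12 and 0.22), and the numbers were not taken to pair them. The negative value is that of replicate 2, whose libraries lie on opposite sides of the split. These correlations therefore cannot decide whether the numbers pair libraries, and whether same-numbered libraries share an origin is not stated. The count by unadjusted p and fold, 670, became 1173 without a filter, 222 with at least 10 reads in every library, 346 without the population term, 33 for a continuous Sftpc term (a slope per doubling rather than a difference) and 256 to 1828 with single libraries left out. The 246 treated calls became 808 without a filter, 448 with DESeq2, 5 with the replicate block, 0 without the population term (2049 at an unadjusted p under 0.05) and 0 to 1504 with single libraries left out. In the fit of all 12 libraries 0 hypoxia and 0 S phase genes passed. The fold change of Lgr5, -0.19, was 0.15 without LGR5- replicate 3, within a range of -0.463 to 0.15 over single libraries left out. No called named gene changed sign in these settings. Of 86 named genes 84 kept their direction and side of the threshold with DESeq2, 52 without the population term, 33 in the fit of all 12 libraries, 12 without LGR5- replicate 3 and 8 with the replicate block. The causes were not tested.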
